A study of Mus musculus with 12 samples.

Results

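The IFIT and ISG15 pathway genes described here are Ifit1, Ifit2, Ifit3, Isg15, Usp18, Rsad2, Cmpk2, Ifi44, Xaf1 and Herc6, which are interferon-stimulated genes of the mouse. They were chosen by name, as the rows that carry these symbols in the read count table of each library, and are 10 of the 25683 genes listed. All 10 were present in every table, and all 10 had enough exon reads to be tested. The tables come from J774.1 cells, a macrophage-like mouse line that the labels assign to the BALB/c strain. Unedited cells (WT) and lines labelled rictor-KO and GATA3-KO were kept for 6 h with the solvent DMSO or with isorhamnetin, a methylated plant flavonol, at 10 µM. Each of these 6 groups held 2 libraries, and the labels name a single line for each knockout, so that effects of a knockout and of its clone cannot be told apart. The question put to the data was how the compound and each knockout line change the transcripts of these genes.

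Type I interferons bind the receptor made of Ifnar1 and Ifnar2, whose kinases Jak1 and Tyk2 activate a complex of transcription factors. That complex binds the interferon-stimulated response element (ISRE) in promoters of antiviral genes and switches them on, and a macrophage that senses microbial products can start the loop by making interferon beta. Among its targets, the IFIT proteins bind viral RNA, Isg15 is a ubiquitin-like protein that is coupled to other proteins, and Usp18 both removes Isg15 and dampens the receptor.

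The genes lie in 7 places on 6 chromosomes of GRCm38, the build of the tables. Ifit2 (ENSMUSG00000045932, chromosome 19, 34550694 to 34576419), Ifit3 (ENSMUSG00000074896, 34583531 to 34588731) and Ifit1 (ENSMUSG00000034459, 34640871 to 34650009) share a cluster of 6 IFIT genes that spans 99.3 kb. Rsad2 (ENSMUSG00000020641, chromosome 12, 26442746 to 26456452, minus strand) and Cmpk2 (ENSMUSG00000020638, 26469204 to 26479837, plus strand) are read away from each other from starts 12.8 kb apart. Usp18 (ENSMUSG00000030107, 121245906 to 121270917) and Herc6 (ENSMUSG00000029798, 57581000 to 57664632) are both on chromosome 6 but far apart. Isg15 (ENSMUSG00000035692, 156199455 to 156200796) is on chromosome 4. Ifi44 (ENSMUSG00000028037, 151730922 to 151749960) is on chromosome 3, and Xaf1 (ENSMUSG00000040483, 72301629 to 72313733) is on chromosome 11.

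Promoter windows from RefSeq (GRCm38.p6, 300 bases each, from 250 before to 50 after a start) were matched by symbol for 9 of the genes, all but Usp18. They were searched on both strands for the ISRE core GAAANNGAAA, where N is any base and which reads TTTCNNTTTC on the other strand. Ifit1, Ifit3, Isg15 and Rsad2 held it, 4 of the 9, against 3.99% of the 27025 genes with such a window and 14 of the 32 matched genes of a wider list of interferon-stimulated genes. The shorter core AANNGAAA, to which interferon regulatory factors can bind and which lies inside every ISRE core, was in the windows of 6 of the 9, adding Ifi44 and Xaf1, against 26.7% of all genes with a window and 29 of the 32 of the wider list. The first base of each ISRE core stood 104 and 85 bases before the start in Ifit1, 156 and 122 in Ifit3, 120 in Rsad2, and 78, 72 and 66 in Isg15, where the matches overlap. The stretches that hold them are printed because they carry the element through which these genes are known to answer interferon, with the ISRE core in capitals and 20 bases on each side, 5′ to 3′ on the strand of the gene. They lie at chr19:34640765-34640833 (plus strand) for Ifit1, chr19:34583353-34583436 (plus) for Ifit3, chr4:156200855-156200916 (minus) for Isg15 and chr12:26456543-26456592 (minus) for Rsad2. A match is a description of the letters and shows no binding.
Ifit1: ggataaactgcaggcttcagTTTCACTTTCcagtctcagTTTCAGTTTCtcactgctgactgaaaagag
Ifit3: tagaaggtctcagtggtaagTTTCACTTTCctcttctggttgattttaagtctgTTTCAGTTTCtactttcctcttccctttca
Isg15: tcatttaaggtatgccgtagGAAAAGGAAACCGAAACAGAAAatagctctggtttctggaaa
Rsad2: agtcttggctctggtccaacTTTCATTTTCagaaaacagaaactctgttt

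Exon reads numbered 35671457 to 53099804 per library, and 97.3% to 97.9% of them were unique. Of 10 macrophage markers, 8 had reads in every library (Cd68 from 11093, Csf1r from 34389), while Mertk and Mrc1, which mark tissue macrophages, had at most 2 and 36. Markers of T cells, neutrophils, fibroblasts, epithelium and mast cells had at most 8 reads, B cell markers at most 14 and dendritic cell markers at most 104. The targeted transcripts did not separate the knockout lines. Rictor had 60.8 and 63.0 CPM (reads scaled to the size of each library) in the WT DMSO libraries, 34.3 and 31.2 in those of rictor-KO and 36.2 and 32.3 in those of GATA3-KO. In the same libraries Gata3 had 39 and 57, 26 and 13, and 11 and 12 reads.

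All 10 genes were highest in unedited cells with DMSO. In 10 of 10, both of those libraries stood above each of the other 10 libraries of the series. How many of all tested genes have this order was not counted. Against WT with DMSO, 18.3% of all tested genes were lower in WT with isorhamnetin. With DMSO, 20.7% were lower in rictor-KO and 27.1% in GATA3-KO. The lowest group was WT with isorhamnetin for 6 genes, a rictor-KO group for Rsad2, Cmpk2 and Ifi44, and GATA3-KO with DMSO for Herc6. On the RPKM scale, which divides by exon length and so compares levels between genes, Usp18 (89.9 RPKM), Ifi44 (77.7) and Isg15 (64.4) were the most abundant in WT with DMSO, and Rsad2 the least (1.99). In bulk RNA, a smaller share of cells that express a gene and less of its RNA per cell cannot be told apart.

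**Figure D1:**
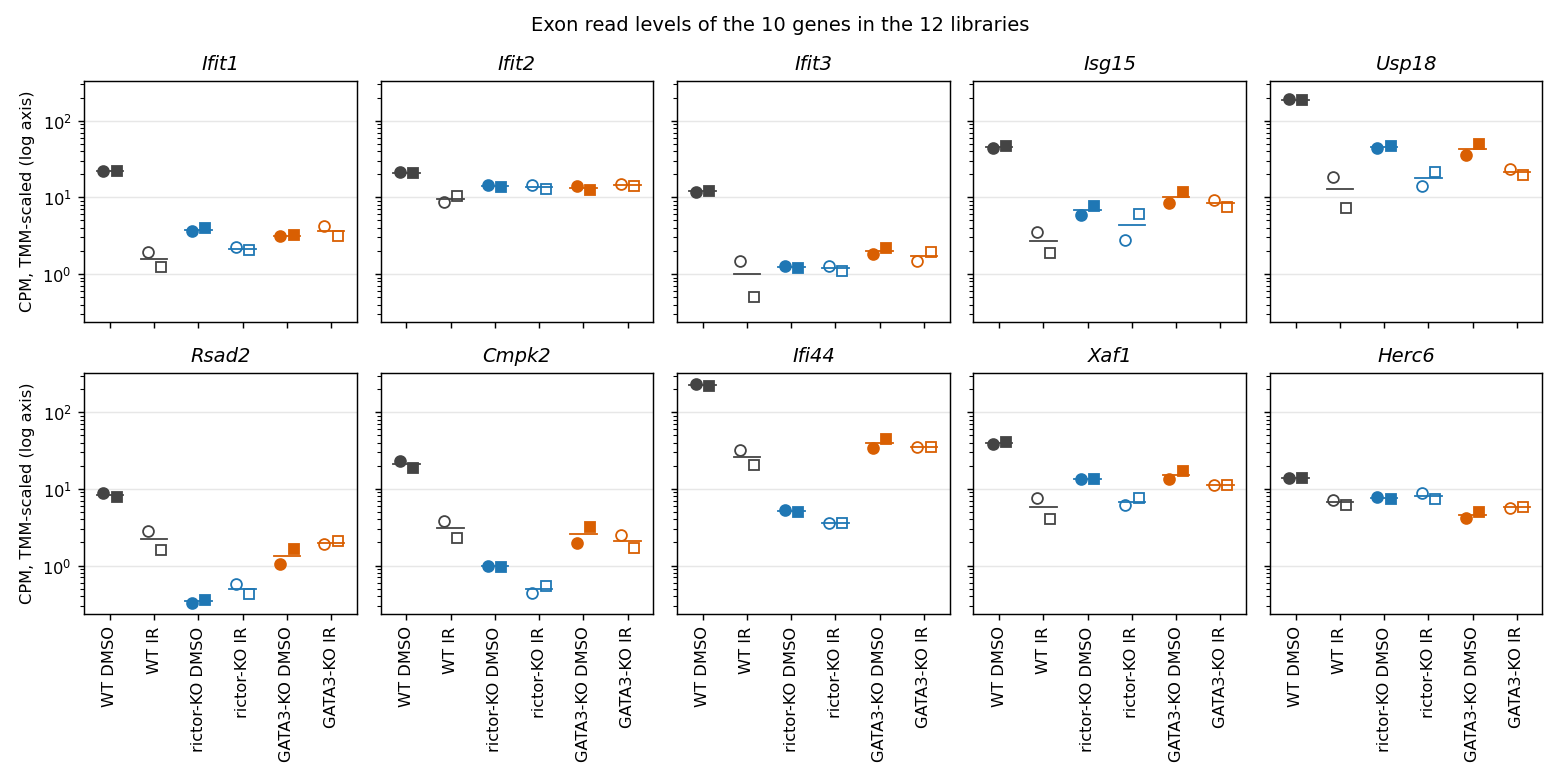
Exon reads of the 10 genes in each of the 12 libraries, in CPM scaled with TMM factors on a log axis; circles are replicate 1, squares replicate 2, lines group means, filled symbols DMSO and open symbols isorhamnetin (IR). Both WT DMSO libraries stand above every other library in all 10 panels, and Rsad2, Cmpk2 and Ifi44 are lowest in the rictor-KO libraries.

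The IFIT genes encode proteins with tetratricopeptide repeats that bind foreign RNA, and Ifit1 recognises the incompletely capped 5′ ends of viral messages. Ifit1 had 21.9 and 22.2 CPM in the WT libraries under DMSO and 1.92 and 1.22 under isorhamnetin, 3.59 and 3.93 against 2.24 and 2.06 in those of rictor-KO, and 3.12 and 3.19 against 4.26 and 3.11 in those of GATA3-KO. Ifit3, whose human protein stabilises IFIT1, had 11.9 and 12.2 CPM in the WT libraries under DMSO and 1.49 and 0.509 under isorhamnetin, 1.28 and 1.20 against 1.28 and 1.09 in those of rictor-KO, and 1.82 and 2.19 against 1.46 and 1.96 in those of GATA3-KO. Both stood apart in the WT libraries with DMSO, more than 5 CPM above every other library. Ifit2, whose protein also binds RNA, spanned the narrowest range as a ratio of highest to lowest library, with 21.3 and 20.6 CPM in the WT libraries under DMSO and 8.58 and 10.4 under isorhamnetin, 14.4 and 13.6 against 14.3 and 12.9 in those of rictor-KO, and 14.0 and 12.3 against 14.7 and 14.0 in those of GATA3-KO. Its 4 knockout groups overlapped their neighbours in the order of levels, and WT with isorhamnetin stood below them all. Ifit3 counts are less certain than the others, because down to 92.3% of its reads in a library were unique and its near copy Ifit3b lies in the same cluster.

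Isg15 is the ubiquitin-like protein itself, Usp18 its protease, and Herc6 is known in the mouse as the main ligase that couples Isg15 to its targets. Isg15 had 43.8 and 46.8 CPM in the WT libraries under DMSO and 3.56 and 1.86 under isorhamnetin, 5.90 and 7.62 against 2.76 and 5.98 in those of rictor-KO, and 8.35 and 11.8 against 9.20 and 7.57 in those of GATA3-KO. Usp18 had 189 and 187 CPM in the WT libraries under DMSO and 18.3 and 7.18 under isorhamnetin, 44.1 and 46.9 against 14.1 and 21.5 in those of rictor-KO, and 35.8 and 49.5 against 23.6 and 19.8 in those of GATA3-KO. For Isg15 the libraries overlapped between all neighbouring groups below WT with DMSO. For Usp18 the isorhamnetin libraries stood below the DMSO libraries in each of the 3 genotypes. Herc6 had 13.7 and 13.7 CPM in the WT libraries under DMSO and 7.16 and 6.16 under isorhamnetin, 7.92 and 7.47 against 8.84 and 7.30 in those of rictor-KO, and 4.15 and 5.03 against 5.63 and 5.82 in those of GATA3-KO. Its lowest libraries were those of GATA3-KO with DMSO.

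Rsad2 encodes viperin, a radical SAM enzyme that makes a chain-terminating nucleotide from CTP, and its neighbour Cmpk2 encodes a mitochondrial nucleotide kinase. Rsad2 had 8.96 and 7.81 CPM in the WT libraries under DMSO and 2.85 and 1.58 under isorhamnetin, 0.326 and 0.357 against 0.566 and 0.422 in those of rictor-KO, and 1.05 and 1.65 against 1.92 and 2.07 in those of GATA3-KO. Cmpk2 had 23.3 and 18.7 CPM in the WT libraries under DMSO and 3.86 and 2.32 under isorhamnetin, 0.979 and 0.969 against 0.443 and 0.546 in those of rictor-KO, and 2.0 and 3.16 against 2.47 and 1.70 in those of GATA3-KO. The 4 rictor-KO libraries were the lowest of the 12 for both genes, holding 12 to 23 reads of Rsad2 and 18 to 38 of Cmpk2. Ifi44, an interferon-induced gene associated with microtubular aggregates, was lowest in the same 4 libraries. It had 236 and 216 CPM in the WT libraries under DMSO and 32.3 and 20.2 under isorhamnetin, 5.36 and 4.95 against 3.59 and 3.60 in those of rictor-KO, and 34.5 and 44.3 against 35.2 and 35.6 in those of GATA3-KO. Xaf1, which encodes a pro-apoptotic partner of the inhibitor XIAP, had 38.1 and 40.3 CPM in the WT libraries under DMSO and 7.64 and 4.02 under isorhamnetin, 13.5 and 13.5 against 6.08 and 7.52 in those of rictor-KO, and 13.5 and 16.9 against 11.3 and 11.2 in those of GATA3-KO. For Xaf1 the knockout lines did not stand apart with DMSO, and its isorhamnetin libraries were below its DMSO libraries in each genotype.

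The first comparison asks what isorhamnetin does to these genes in unedited cells. All 10 fell past an adjusted p of 0.05 (edgeR's quasi-likelihood test with Benjamini-Hochberg adjustment over the 11808 genes tested), where 18.3% of all tested genes fell and 19.8% rose (38.1% in either direction). Their median log2 fold change was -2.94, beside 0.01 for all tested genes. The steepest falls were those of Isg15 (-4.06, SE 0.41, adjusted p = 9.86e-05), Usp18 (-3.88, SE 0.45, adjusted p = 0.000704) and Ifit1 (-3.81, SE 0.24, adjusted p = 9.74e-08). Ifit3 (-3.58, SE 0.39, adjusted p = 8.74e-06) and Ifi44 (-3.11, SE 0.19, adjusted p = 8.20e-07) came next. Cmpk2 (-2.76, SE 0.29, adjusted p = 7.35e-06) and Xaf1 (-2.75, SE 0.23, adjusted p = 2.13e-06) lost about as much as each other. Rsad2 (-1.92, SE 0.34, adjusted p = 0.000571) lay between these and the last pair, and Ifit2 (-1.14, SE 0.14, adjusted p = 1.81e-05) and Herc6 (-1.04, SE 0.17, adjusted p = 0.000274) changed least. The 4 genes with an ISRE core in their window had log2 fold changes of -4.06 to -1.92 and the 5 matched genes without one had -3.11 to -1.04, ranges that overlap.

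The WT isorhamnetin libraries differed from each other in these genes. Replicate 1 stood above replicate 2 in 9 of 10, by a ratio of 2.92 for Ifit3, 2.55 for Usp18 and 1.16 for Herc6, with Ifit2 the exception at 0.82. How all tested genes split between these 2 libraries was not counted. Without replicate 1 the log2 fold change was -4.55 for Ifit3 and -4.71 for Usp18, and without replicate 2 it was -3.01 and -3.36. All 10 falls passed the threshold in each of the 12 fits that left out 1 library.

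In rictor-KO 226 of all tested genes passed the threshold with the compound, 1 of the 10 among them. That count depended on the fit. With a replicate block, edgeR called 1420 genes and 2 of the 10, Xaf1 and Ifit1 (adjusted p = 0.0327 for Ifit1). Xaf1 fell (-0.99, SE 0.23, adjusted p = 0.0438), where 0.483% of all tested genes fell and 1.43% rose (1.91% in either direction). That call was lost in every fit without 1 library other than a WT isorhamnetin library (adjusted p from 0.0596 to 0.262), and in a fit of the rictor-KO libraries alone (adjusted p = 0.123). At an unadjusted p under 0.05 there were 4, with Usp18, Cmpk2 and Ifit1 added, and DESeq2 called 2. The median log2 fold change of the 10 was -0.57, beside -0.01 for all tested genes. Usp18 had the largest value without passing (-1.35, SE 0.42, adjusted p = 0.223), and Cmpk2 (-0.97, SE 0.38, adjusted p = 0.261) and Ifit1 (-0.81, SE 0.23, adjusted p = 0.110) followed. Usp18 passed when either WT isorhamnetin library was left out (adjusted p = 0.00867 and 0.00868) and in DESeq2 (adjusted p = 0.0433). In the authors' deposited table, Usp18 had a log2 fold change of -1.34 and a false discovery rate of 4.18e-08 in rictor-KO, and Xaf1 had -0.98 and 0.13. Ifi44 did not pass either (-0.52, SE 0.23, adjusted p = 0.366), and Ifit2, Ifit3, Herc6 and Rsad2 had values of -0.06 to 0.53. Isg15 differed between the rictor-KO isorhamnetin libraries by a ratio of 0.46, so that its value of -0.63 became -0.18 without replicate 1 and -1.30 without replicate 2.

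In GATA3-KO, 0 of the 10 passed the threshold with edgeR, although 26.2% of all tested genes did (15.9% lower and 10.2% higher, 3092 genes in all, a count that went to 528 without GATA3-KO DMSO replicate 1 and to 542 without GATA3-KO isorhamnetin replicate 2). DESeq2 also called 0, and 0 had an unadjusted p under 0.05. The values ran from -0.98 for Usp18 to 0.56 for Rsad2, with a median of -0.19 beside 0.00 for all tested genes. Usp18 (-0.98, SE 0.41, adjusted p = 0.131) and Xaf1 (-0.44, SE 0.22, adjusted p = 0.159) were again the lowest. Without either WT isorhamnetin library both passed, with adjusted p = 0.00932 and 0.00933 for Usp18 and 0.0416 and 0.0424 for Xaf1. A fit of the GATA3-KO libraries alone also called Usp18 (adjusted p = 0.00721). The authors' deposited table gives Usp18 -0.96 with a false discovery rate of 2.06e-07 in GATA3-KO, and Xaf1 -0.42 with 0.01.

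**Figure D2:**
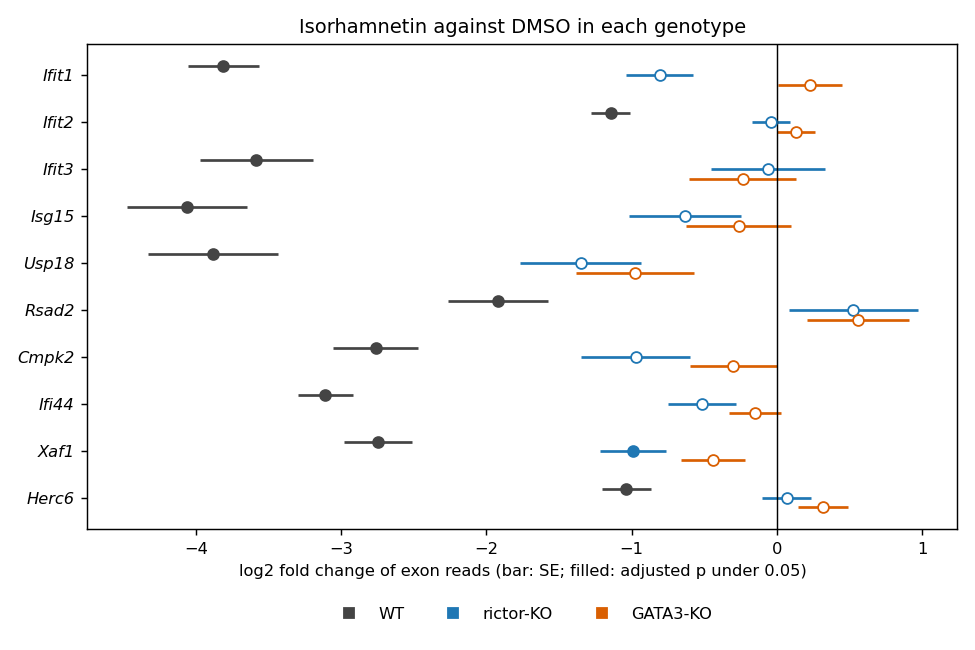
Log2 fold change of exon reads, isorhamnetin against DMSO, for each of the 10 genes in WT, rictor-KO and GATA3-KO cells (points; bars are SE; filled points passed an adjusted p of 0.05). The WT points lie between -4.06 and -1.04, and the knockout points between -1.35 and 0.56, with Usp18 lowest in both knockout lines.

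The response to isorhamnetin was then compared between genotypes in the same model. The response was less negative in rictor-KO than in WT, or positive (Rsad2 and Herc6), for 10 of 10 genes, where 6.65% of all tested genes had a more positive response and 7.11% a more negative one (13.8% in either direction). The difference of log2 fold changes ran from 1.11 for Ifit2 and Herc6 to 3.52 for Ifit3, with a median of 2.49. For Usp18 (2.53, SE 0.59, adjusted p = 0.0365) the call was lost in 9 of 12 fits that left out 1 library, all but those without WT isorhamnetin replicate 1 or 2 or rictor-KO isorhamnetin replicate 1 (adjusted p from 0.0528 to 0.107), with no filter on low counts (0.0501) and in a fit of the compared groups alone (0.0794). For Cmpk2 (1.79, SE 0.48, adjusted p = 0.0235) it was lost without WT DMSO replicate 1 or 2, WT isorhamnetin replicate 2 or rictor-KO isorhamnetin replicate 2 (adjusted p from 0.0517 to 0.107). In GATA3-KO the response was likewise less negative than in WT, or positive (Ifit1, Ifit2, Rsad2 and Herc6), for 10 of 10 genes. Of all tested genes, 12.4% were called in that direction and 15.5% in the other (28.0% in all). The differences of the 10 genes ran from 1.28 for Ifit2 to 4.04 for Ifit1, with a median of 2.69. Only Usp18 lost its call in a fit without 1 library (adjusted p = 0.0575 without GATA3-KO DMSO replicate 1). Ifit3, Isg15 and Usp18 moved most when 1 library was left out. Without WT isorhamnetin replicate 1 the difference for rictor-KO was 4.49 for Ifit3 and 3.36 for Usp18, and that for GATA3-KO was 4.32 and 3.73. For Isg15 the rictor-KO difference was 2.77 without rictor-KO isorhamnetin replicate 2. Both comparisons share the WT libraries, so their values are given side by side only.

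Between the knockout lines themselves, the responses of 0 genes differed past the threshold (0.00% of all tested genes, edgeR), although DESeq2 called 1054 and edgeR 1509 without GATA3-KO DMSO replicate 2. With a replicate block edgeR called 3173 genes, Ifit1 of the 10 among them (adjusted p = 0.0257). Among the 10 in the main fit, Ifit1 alone had an unadjusted p under 0.05 (1.03, SE 0.32, adjusted p = 0.101), and DESeq2 called 0 of them. The other 9 differences ran from -0.17 for Ifit3 to 0.67 for Cmpk2.

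With DMSO alone, the knockout lines were compared with WT. In rictor-KO all 10 genes were lower, where 20.7% of all tested genes were lower and 19.3% higher (40.0% in either direction). The median was -2.65, beside -0.01 for all tested genes. The nucleotide enzymes and Ifi44 stood lowest, at -5.46, SE 0.22, adjusted p = 3.09e-08 for Ifi44, -4.60, SE 0.41, adjusted p = 1.09e-06 for Rsad2 and -4.42, SE 0.33, adjusted p = 2.21e-07 for Cmpk2. The log2 fold change of Ifit3 was -3.28, that of Isg15 -2.74, that of Ifit1 -2.55, that of Usp18 -2.05 and that of Xaf1 -1.54. Herc6 (-0.83, SE 0.17, adjusted p = 0.00124) and Ifit2 (-0.59, SE 0.13, adjusted p = 0.00278) again changed least.

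In GATA3-KO with DMSO all 10 were lower than in WT as well, where 27.1% of all tested genes were lower and 26.8% higher (53.9% in either direction). Their median was -2.34, beside 0.01 for all tested genes. The values were closer together, from -3.02, SE 0.30, adjusted p = 1.72e-06 for Cmpk2 to -0.68, SE 0.13, adjusted p = 0.000642 for Ifit2. Ifi44 stood at -2.52, Rsad2 at -2.63, Ifit1 at -2.80, Ifit3 at -2.58, Isg15 at -2.17, Usp18 at -2.14, Xaf1 at -1.37 and Herc6 at -1.58. Neither of these comparisons lost a call among the 10 genes in any alternative run.

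The knockout lines were then set against each other. WT levels are not compared here, but the WT libraries entered the shared estimate of the spread. With DMSO, 3 genes were higher in GATA3-KO than in rictor-KO, where 15.4% of all tested genes were higher (30.1% in either direction). These were Ifi44 (2.94, SE 0.21, adjusted p = 5.55e-06), Rsad2 (1.98, SE 0.41, adjusted p = 0.00284) and Cmpk2 (1.40, SE 0.32, adjusted p = 0.00538). Without GATA3-KO DMSO replicate 2 the Cmpk2 call was lost (adjusted p = 0.0782). Herc6 was lower (-0.74, SE 0.17, adjusted p = 0.00552), where 14.7% of all tested genes were lower. The other 6 did not pass, with values from -0.25 for Ifit1 to 0.69 for Ifit3.

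With isorhamnetin, the same 3 genes were higher in GATA3-KO than in rictor-KO, with Ifi44 at 3.30, SE 0.21, adjusted p = 1.41e-06, Cmpk2 at 2.08, SE 0.35, adjusted p = 0.000204 and Rsad2 at 2.01, SE 0.38, adjusted p = 0.000551. Xaf1 (0.72, SE 0.23, adjusted p = 0.0157) and Ifit1 (0.78, SE 0.23, adjusted p = 0.0101) were higher too, which made 5 where 26.1% of all tested genes were called higher (53.8% in either direction). Herc6 was lower (-0.50, SE 0.17, adjusted p = 0.0229), where 27.6% of all tested genes were. The calls of Xaf1, Ifit1 and Herc6 were each lost in some of the fits that left out 1 library. Xaf1 was lost without rictor-KO isorhamnetin replicate 1 or either GATA3-KO isorhamnetin library (adjusted p from 0.0643 to 0.109), and Herc6 without the same libraries (0.0772 to 0.181). Ifit1 was lost without rictor-KO isorhamnetin replicate 2 or GATA3-KO isorhamnetin replicate 1 (0.0526 and 0.120). Isg15 did not pass (0.94, SE 0.38, adjusted p = 0.0650), but did without either WT isorhamnetin library or without rictor-KO isorhamnetin replicate 2 (adjusted p from 0.00288 to 0.0338), in DESeq2 (0.00645) and in a fit of the compared groups alone (0.0297). A fit of those groups alone also lost Herc6 (0.0605).

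**Figure D3:**
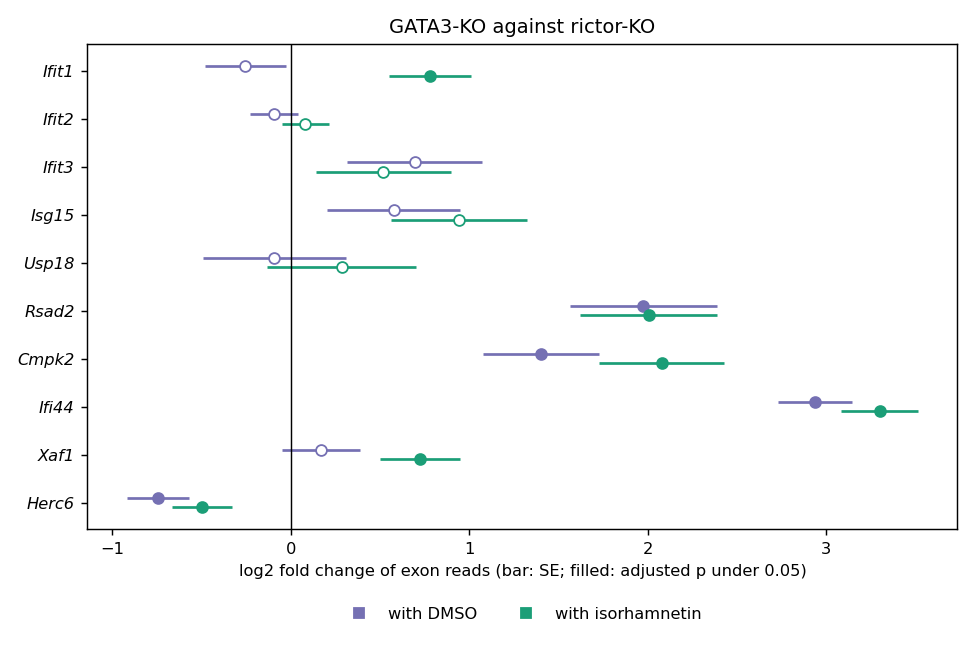
Log2 fold change of exon reads in GATA3-KO against rictor-KO cells for each of the 10 genes, with DMSO and with isorhamnetin (points; bars are SE; filled points passed an adjusted p of 0.05). Ifi44, Rsad2 and Cmpk2 are higher in GATA3-KO under both treatments, from 1.40 to 3.30, and Herc6 is lower, at -0.74 and -0.50.

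Under isorhamnetin the gap between WT and the knockout lines was small or turned for most of these genes. In rictor-KO with isorhamnetin against WT with isorhamnetin, Ifi44 (-2.87, SE 0.22, adjusted p = 5.11e-06), Cmpk2 (-2.64, SE 0.35, adjusted p = 8.02e-05) and Rsad2 (-2.16, SE 0.39, adjusted p = 0.00104) stayed lower, where 12.7% of all tested genes were lower (22.0% in either direction). Ifit2 was higher (0.52, SE 0.14, adjusted p = 0.0128), where 9.36% were. The Ifit2 call was lost without WT isorhamnetin replicate 1 (adjusted p = 0.137), without rictor-KO isorhamnetin replicate 1 (0.0901) and in a fit of those 2 groups alone (0.0599). Without WT isorhamnetin replicate 1, Usp18 (1.31, adjusted p = 0.0131) and Xaf1 (0.76, adjusted p = 0.0205) passed as higher, and without rictor-KO isorhamnetin replicate 1 Isg15 did (1.14, adjusted p = 0.0362). With all libraries the values of the 6 genes that did not pass were 0.69 for Isg15, 0.48 for Usp18, 0.28 for Herc6, 0.25 for Ifit3, 0.22 for Xaf1 and 0.45 for Ifit1.

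In GATA3-KO with isorhamnetin, 4 genes stood above WT with isorhamnetin, where 29.6% of all tested genes did and 32.1% stood below (61.6% in either direction). These were Isg15 (1.63, SE 0.40, adjusted p = 0.00646), Ifit1 (1.23, SE 0.24, adjusted p = 0.000395), Xaf1 (0.94, SE 0.23, adjusted p = 0.00287) and Ifit2 (0.60, SE 0.13, adjusted p = 0.00137). Without WT isorhamnetin replicate 1 the count was 7, with Ifit3 (1.74, adjusted p = 0.00228), Usp18 (1.60, adjusted p = 0.00108) and Ifi44 (0.81, adjusted p = 0.000411) added. Without WT isorhamnetin replicate 2, Cmpk2 was called lower (-0.88, adjusted p = 0.0328). Ifi44 (0.43, SE 0.18, adjusted p = 0.0584) passed also in DESeq2 (0.0231), with plain library totals (0.0493) and without GATA3-KO DMSO replicate 1 (0.0439). Of the rest, Usp18 (0.77), Ifit3 (0.77), Herc6 (-0.22), Rsad2 (-0.15) and Cmpk2 (-0.56) did not pass with all libraries.

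Intron reads, which come mainly from RNA that is not yet spliced, gave a second readout from the same libraries. They numbered 2251701 to 3510219 per library, and 6 of the 10 genes had enough of them to be tested among 11450 genes. Of these, Cmpk2 passed the filter only through WT with DMSO, so its intron reads are given without a test. In WT, Ifi44 had 336 and 434 intron reads with DMSO and 27 and 14 with isorhamnetin, Xaf1 had 716 and 926 against 148 and 56, and Usp18 had 358 and 481 against 77 and 35. The 2 groups did not overlap for any of the 3. Their intron log2 fold changes with isorhamnetin passed the threshold for Ifi44 (-4.13, SE 0.41, adjusted p = 1.98e-08), Usp18 (-2.81, SE 0.26, adjusted p = 6.73e-10) and Xaf1 (-2.92, SE 0.31, adjusted p = 3.76e-05). Of all genes tested on intron reads, 7.29% fell and 7.43% rose (14.7% in either direction). Cmpk2 had 21 and 36 intron reads in WT with DMSO and 0 and 3 with isorhamnetin. Ifit2 (-0.95, SE 0.54, adjusted p = 0.276) and Herc6 (-0.64, SE 0.30, adjusted p = 0.156) did not pass.

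The intron reads of rictor-KO with DMSO were lower than those of WT for Ifi44 (-5.68, SE 0.47, adjusted p = 5.46e-10), Xaf1 (-1.95, SE 0.29, adjusted p = 0.000472), Usp18 (-1.61, SE 0.24, adjusted p = 5.32e-06) and Herc6 (-1.07, SE 0.30, adjusted p = 0.0103). Of all genes so tested, 9.14% were lower and 8.91% higher (18.0% in either direction). With DMSO, Ifi44 had only 13 and 2 intron reads in the rictor-KO libraries, and 10 and 36 in those of GATA3-KO. Cmpk2 had 0 and 0 intron reads in the same rictor-KO libraries, while those of GATA3-KO had 8 and 2. In GATA3-KO with DMSO, Ifi44 (-3.88, SE 0.41, adjusted p = 2.58e-08), Usp18 (-1.94, SE 0.25, adjusted p = 2.04e-07), Xaf1 (-1.61, SE 0.29, adjusted p = 0.00105) and Herc6 (-1.57, SE 0.32, adjusted p = 0.000216) were lower, 4 where 16.6% were lower and 15.1% higher (31.7% in either direction). With isorhamnetin in the knockout lines, edgeR called 0 of the other 5 on intron reads (0.524% of all genes so tested were called in rictor-KO, 0.114% lower and 0.410% higher, and 1.60% in GATA3-KO, 1.16% lower and 0.437% higher). At an unadjusted p under 0.05 there were 2 in rictor-KO, Usp18 and Xaf1, and 1 in GATA3-KO, Usp18. The reads of Ifit1, Isg15 and Rsad2 in introns were at most 10 in any library and those of Ifit3 at most 12.

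**Figure D4:**
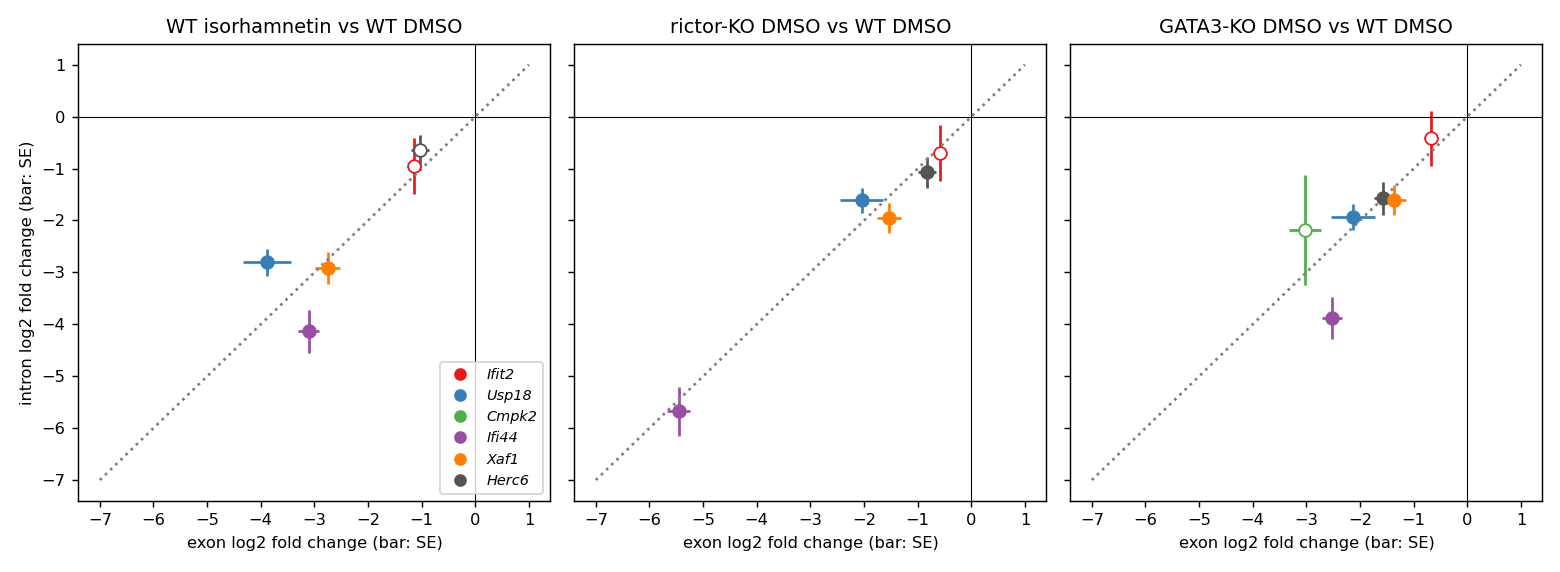
Intron against exon log2 fold change for the genes tested on intron reads, in WT with isorhamnetin and in each knockout line with DMSO, all against WT with DMSO (points; bars are SE; filled points passed an adjusted p of 0.05 on intron reads; the dotted line marks equal change). Cmpk2 is drawn only for GATA3-KO, because WT with isorhamnetin and rictor-KO with DMSO had 3 intron reads of it or fewer. It passed the filter only through WT with DMSO, so its mark and SE on intron reads are not read as a test. Ifi44 reaches -5.68 on intron reads in rictor-KO, where the DMSO libraries had 13 and 2 of them.

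The rest of the pathway was followed from ligand to target. Among 21 interferon genes, Ifnb1, which encodes interferon beta, was the only one to pass the filter, with 16 and 24 reads in WT with DMSO. It had 0 reads in 2 groups, WT with isorhamnetin and rictor-KO with DMSO, and at most 2 reads in any library of the other 3 groups. Because it passed the filter on low counts only through WT with DMSO, its reads are given without a test. Ifnar1 rose in WT with isorhamnetin from 77 ± 0.351 to 105 ± 6.55 CPM (SD, n = 2; log2 fold change 0.45, SE 0.08, adjusted p = 0.000706), and Ifnar2 from 49.7 ± 4.99 to 74.8 ± 6.68 CPM (0.59, SE 0.09, adjusted p = 0.000197). With DMSO, Ifnar2 was higher than in WT in rictor-KO (0.32, SE 0.09, adjusted p = 0.0126) and in GATA3-KO (0.40, SE 0.09, adjusted p = 0.00238). Ifnar1 was lower in GATA3-KO (-0.31, SE 0.08, adjusted p = 0.00643), a call lost with plain library totals (adjusted p = 0.0988), and did not pass in rictor-KO (-0.17, SE 0.08, adjusted p = 0.125). In WT with isorhamnetin the kinases Jak1 (-0.15, SE 0.10, adjusted p = 0.233) and Tyk2 (0.18, SE 0.10, adjusted p = 0.151) did not pass. When libraries were scaled by their plain totals, Tyk2 passed there (0.34, adjusted p = 0.0147) and Jak1 turned to 0.01. With DMSO, Tyk2 had 79.1 ± 1.72 CPM in WT (SD, n = 2), 81.8 ± 7.80 in rictor-KO and 50.5 ± 6.17 in GATA3-KO. Jak1 had 178 ± 6.55, 174 ± 6.40 and 157 ± 18.2 CPM in the same groups.

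Stat2 and Irf9, which encode transcription factors that act at the ISRE, fell in WT with the compound. Stat2 went from 59.0 ± 1.98 to 22.7 ± 2.83 CPM (SD, n = 2; -1.38, SE 0.17, adjusted p = 3.08e-05), and Irf9 from 91.2 ± 2.70 to 38.2 ± 8.67 CPM (-1.25, SE 0.13, adjusted p = 7.97e-06, on the log2 scale). In the knockout lines neither passed with the compound, with log2 fold changes in rictor-KO and GATA3-KO of -0.09 and -0.32 for Stat2 and of -0.44 and -0.09 for Irf9. With DMSO both were lower than in WT in rictor-KO (Stat2 -1.23, SE 0.17, adjusted p = 6.01e-05; Irf9 -0.80, SE 0.13, adjusted p = 0.000273) and in GATA3-KO (Stat2 -1.58, SE 0.17, adjusted p = 4.78e-06; Irf9 -0.70, SE 0.13, adjusted p = 0.000499).

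Of the transcription factors that switch on interferon genes, Irf7 moved and Irf3 did not pass. Irf7, itself a target of interferon, went from 149 ± 0.0734 to 16.3 ± 4.18 CPM in WT (SD, n = 2; log2 fold change -3.19, SE 0.37, adjusted p = 0.000568). Irf3 had 40.1 ± 1.41 CPM before and 40.0 ± 2.40 CPM after (difference on the log2 scale -0.01, SE 0.10, adjusted p = 0.965), a value that turned to 0.15 with plain library totals. Over 20 genes of interferon induction, 14 fell and 1 rose in WT with the compound, with a median log2 fold change of -0.56. The genes with the smallest p were Ifih1, an RNA sensor (-2.72, SE 0.21, adjusted p = 1.41e-06), the kinase gene Ikbke (-1.42, SE 0.13, adjusted p = 2.16e-06), and the adaptors Ticam1 (-1.33) and Myd88 (-1.02). In GATA3-KO 8 of the 20 fell and 1 rose with the compound (median -0.37), where 15.9% of all tested genes fell. In rictor-KO 1 fell and 0 rose (median -0.22). With DMSO, 13 were lower and 1 higher than in WT in each knockout line. The medians were -0.72 in rictor-KO and -0.66 in GATA3-KO. With plain library totals, 11 were lower and 2 higher in rictor-KO, and 12 lower and 5 higher in GATA3-KO.

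The machinery that couples Isg15 to proteins fell in part. Of 4 genes tested, 3 fell in WT with isorhamnetin, with a median log2 fold change of -0.96. Uba7, which encodes the activating enzyme, went from 35.8 ± 2.61 to 12.9 ± 2.16 CPM (SD, n = 2; log2 fold change -1.48, SE 0.14, adjusted p = 1.94e-06). The conjugating enzyme gene Ube2l6 (-1.0, SE 0.22, adjusted p = 0.00439) and the ligase gene Trim25 (-0.92, SE 0.08, adjusted p = 1.42e-06) fell too. Arih1, which encodes another ligase, did not pass (-0.05, SE 0.09, adjusted p = 0.718), and its value turned to 0.11 with plain library totals. In GATA3-KO Trim25 alone of the 4 fell with the compound (-0.37, SE 0.08, adjusted p = 0.00546), and in rictor-KO their adjusted p ran from 0.0842 to 0.984.

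Of 7 feedback inhibitors, Socs1 and Socs3, which block the receptor's kinases, fell in WT with isorhamnetin. Socs1 went from 3.75 ± 0.10 to 0.532 ± 0.0391 CPM (SD, n = 2; log2 fold change -2.81, SE 0.50, adjusted p = 0.000538), and Socs3 from 414 ± 46.9 to 42.6 ± 24.0 CPM (-3.28, SE 0.63, adjusted p = 0.00748). The phosphatase gene Ptpn6 fell (-0.64, SE 0.09, adjusted p = 8.51e-05) and Ptpn1 rose (0.49, SE 0.11, adjusted p = 0.00325), while Ptpn2 (-0.18), Pias1 (-0.04) and Trim24 (0.18) did not pass. Of the other IFIT genes of the cluster, Ifit3b had 88 and 119 reads in WT with DMSO and at most 25 in any other library, and fell with isorhamnetin (-3.01, SE 0.73, adjusted p = 0.00486). Ifit1bl2 had 37 and 47 reads in WT with DMSO and at most 15 elsewhere, with 5 and 0 in WT with isorhamnetin (-4.19, SE 1.07, adjusted p = 0.00671). Ifit1bl1 had at most 6 reads in a library and was not tested.

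A wider list of interferon-stimulated genes, 43 of them tested, was read beside the 10. In WT with isorhamnetin 38 of them fell, with a median log2 fold change of -1.86, above the -2.94 of the 10 genes. The smallest p-values were those of Oasl1 (-2.74, SE 0.14, adjusted p = 1.30e-08), the GTPase gene Mx2 (-5.26, SE 0.28, adjusted p = 1.62e-08), Tor3a (-1.86, SE 0.11, adjusted p = 7.44e-08) and the nucleic acid sensor gene Zbp1 (-3.71, SE 0.23, adjusted p = 7.93e-08). In rictor-KO 9 fell, with a median of -0.39, among them Samd9l (-0.88, SE 0.15, adjusted p = 0.00638) and Mx2 (-1.41, SE 0.25, adjusted p = 0.00786). In GATA3-KO 13 fell and 1 rose, with a median of -0.22, and the smallest p were those of Dtx3l (-0.72, SE 0.10, adjusted p = 0.000646), Pml (-0.85), the RNA-dependent kinase gene Eif2ak2 (-0.74) and Oasl1 (-0.78). With DMSO 38 were lower and 1 higher in rictor-KO than in WT, and 37 were lower in GATA3-KO. With plain library totals, 35 were lower and 2 higher in GATA3-KO with DMSO. Of all tested genes, 18.3% fell with isorhamnetin in WT, 0.483% in rictor-KO and 15.9% in GATA3-KO. The shares lower than in WT with DMSO were 20.7% in rictor-KO and 27.1% in GATA3-KO. Of 11 reference genes, 6 fell and 1 rose in GATA3-KO with the compound (median -0.28, beside the -0.22 of the wider list). In rictor-KO 0 of them passed (median -0.07). In WT 2 fell and 1 rose (median -0.22), and with plain library totals 1 fell and 2 rose (median -0.06). That scaling moved the median of all tested genes in WT from 0.01 to 0.17, left the falls of the 10 genes and the wider list at 10 and 38, and gave 11 falls and 2 rises among the genes of interferon induction.

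**Figure D5:**
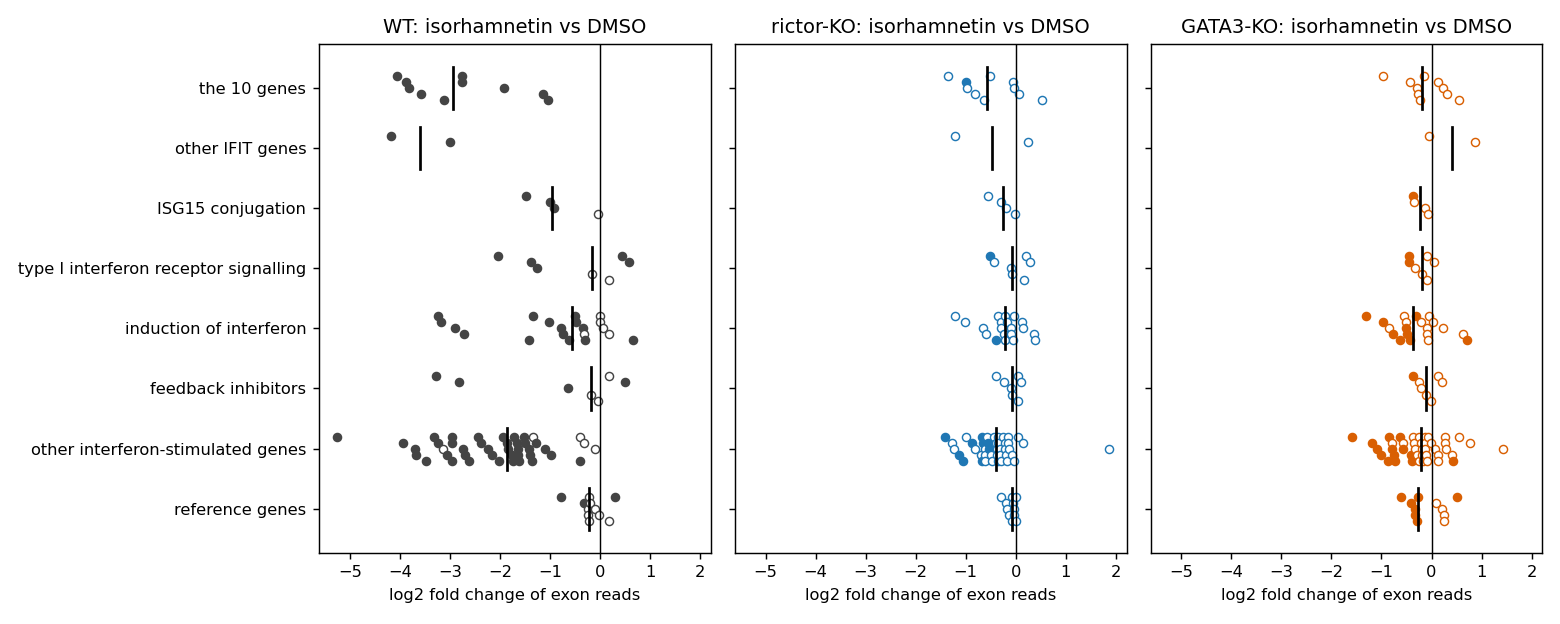
Log2 fold change of exon reads, isorhamnetin against DMSO, for the 10 genes and related gene lists, by genotype (each point is a gene, filled where adjusted p is under 0.05; vertical bars are list medians). In WT the 10 genes and the wider list of interferon-stimulated genes lie to the left, with medians of -2.94 and -1.86, and in the knockout lines their medians lie between -0.57 and -0.19.

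The genes most like the 10 were sought among all tested genes, by the smallest mean absolute difference over the 12 libraries between the centred log2 CPM of a gene and the median profile of the 10. They were Bcl6b, which encodes a zinc finger repressor (0.206 on the log2 scale), Ifi204 of the p200 family (0.243), the immunity-related GTPase genes Irgm1 (0.256) and Igtp (0.278), and Sp100, which encodes a nuclear body protein (0.279). Ifi204 and Sp100 are in the wider list of interferon-stimulated genes. The 10 genes themselves lay 0.238 (Ifit1) to 1.12 (Ifi44) from their own median profile, with Isg15, Ifit3 and Xaf1 at 0.31 or less and Rsad2, Cmpk2 and Herc6 at 0.70 or more. This likeness is a description over 12 libraries of 6 groups.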

How the data were processed

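Total RNA of 12 J774.1 libraries, 2 per genotype and treatment, was column-purified and sequenced with standard Illumina protocols, per the labels. The deposited count tables give total, unique and intron reads per gene, 1 table per library, aligned to GRCm38 per the submitters' processing notes; the aligner, the counting program and use of strand are not given in the sources used here. Among low values (1 to 4 exon reads, 12371 in all), 81.3% were even, so both reads of a pair appear to be counted and the number of fragments is nearer to 0.5 of each value. The authors also deposited log2 fold changes and false discovery rates (FDR p-values) for isorhamnetin in each genotype, by a test that the file headers do not name. Every per-library column used was matched to its library, and no label gives a batch.

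Total exon reads were tested with edgeR 4.0.16 (R 4.3.3), using trimmed mean of M values (TMM) scaling, filterByExpr over the 6 groups and the robust quasi-likelihood F test in 1 model of 6 group means. Benjamini-Hochberg adjustment covered the 11808 tested genes in each of 12 contrasts, with a threshold of 0.05. Intron reads were fitted alike. The procedure was tested on simulated data. CPM were divided by TMM-scaled library sizes and RPKM also by exon length. SD are over the 2 libraries of a group, and SE come from the model. Alternatives were size factors of the RLE kind, plain library totals, no filter, unique reads, the compared groups only, a replicate block, DESeq2 1.42.0, and leaving out each library, where the lone library left in a group is assumed to vary like the others. The labels do not state whether both libraries of a group are independent cultures; if they are not, every p-value here reflects technical variation alone. Libraries of 1 group differed by more than sampling noise.

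The genes, the related lists and the tests were chosen with earlier results of these data known. Of each related list, counts, medians and up to 4 genes by smallest p are given. Genes of the short lists, Ifnb1, Irf3, Irf7, Rictor and Gata3 could be named whatever their values, and the 5 most alike genes were named by rule, with a pseudocount of 0.1 CPM. Of 45 listed interferon-stimulated genes, 44 matched a row (Mnda did not). A result for 1 related gene is not reported here.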

Additional observations from a re-analysis of the deposited data

Results flagged for a closer look

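The response of all 10 genes to isorhamnetin differed between each knockout line and WT by a test of the difference itself (edgeR's quasi-likelihood test in 1 model, adjusted over 11808 genes). Of all tested genes, 6.65% had a more positive response in rictor-KO than in WT (13.8% differed in either direction). For GATA3-KO these shares were 12.4% and 28.0%. The calls of Usp18 in both lines and of Cmpk2 in rictor-KO depended on the fit, as given above. Each value below is the log2 fold change in the knockout line minus that in WT, so that a positive value is a smaller fall or a rise. For the genes of RNA binding, the rictor-KO and GATA3-KO differences were 3.01 and 4.04 for Ifit1, 1.11 and 1.28 for Ifit2, and 3.52 and 3.35 for Ifit3. For the Isg15 system they were 3.43 and 3.80 for Isg15, 2.53 and 2.91 for Usp18, and 1.11 and 1.36 for Herc6. For the nucleotide enzymes they were 2.45 and 2.48 for Rsad2 and 1.79 and 2.46 for Cmpk2. Ifi44 gave 2.59 and 2.96, and Xaf1 gave 1.76 and 2.31. The WT DMSO libraries enter every one of these 20 values, and all 10 genes were higher in those 2 libraries than in any other, an order not counted over all tested genes. The part that this level has in the differences was not tested.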

How the results depend on the processing

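Over 19 alternatives to each of 12 comparisons, 2214 of 2280 values of the 10 genes stayed on their side of the threshold, 41 fell short of it and 25 newly passed. Of called values 0 changed sign, but values that were not called did when a library was left out, such as Ifit3 in rictor-KO against WT under isorhamnetin (0.25 to -0.33), Herc6 in rictor-KO with the compound (0.07 to -0.08) and Isg15 (-0.26 to 0.01) and Cmpk2 (-0.30 to 0.07) in GATA3-KO. All 10 genes were called in every alternative for isorhamnetin in WT and for both knockout lines against WT with DMSO. With isorhamnetin in rictor-KO, where 1 gene was called, the compared groups alone gave 0, DESeq2 2 and leaving out a library 0 to 2. In GATA3-KO, with 0 called, the compared groups alone gave 1 and leaving out a library 0 to 2. Leaving out a library gave 4 to 7 in place of 4 for GATA3-KO against WT under isorhamnetin, and 3 to 7 in place of 6 for GATA3-KO against rictor-KO.

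Deviations of same-numbered libraries correlated at 0.654 in rictor-KO and 0.267 in GATA3-KO, but at -0.037 in WT and at -0.079 to 0.057 across genotypes, so the numbers were not taken to pair all libraries. With a replicate block, members called numbered 2 in rictor-KO (Ifit1 added) and 1 for the response of GATA3-KO against rictor-KO (Ifit1, adjusted p = 0.0257 in edgeR), and 9 in place of 10 for the response of rictor-KO against WT (Usp18 lost, adjusted p = 0.0672).

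Counts over all genes moved more. For isorhamnetin they were 4493 in WT (2812 without WT DMSO replicate 2, 2592 without WT isorhamnetin replicate 2), 226 in rictor-KO (39 with the compared groups alone, 424 in DESeq2, 1420 with the block, 147 without rictor-KO DMSO replicate 2, 141 without rictor-KO isorhamnetin replicate 1) and 3092 in GATA3-KO (5176 with the block, 528 without GATA3-KO DMSO replicate 1, 542 without GATA3-KO isorhamnetin replicate 2). GATA3-KO against rictor-KO gave 3559 with DMSO (1700 without GATA3-KO DMSO replicate 2), and rictor-KO against WT under isorhamnetin 2599 (1701 and 1602 without WT isorhamnetin replicate 1 or 2). The response differences gave 1624 for rictor-KO (3601 with the block, 780 without WT DMSO replicate 2, 806 without WT isorhamnetin replicate 2), 3303 for GATA3-KO (5320 with the block, 1809 to 1924 without WT DMSO replicate 2, WT isorhamnetin replicate 2, GATA3-KO DMSO replicate 1 or GATA3-KO isorhamnetin replicate 2) and 0 between knockout lines (233 with no filter, 1054 in DESeq2, 3173 with the block, 1509 without GATA3-KO DMSO replicate 2). Plain library totals turned the split of higher to lower genes from 2336 and 2157 to 3588 and 1257 in WT with isorhamnetin, from 2283 and 2446 to 3670 and 1637 in rictor-KO with DMSO, and from 3167 and 3196 to 4141 and 2547 in GATA3-KO with DMSO. For the responses it went from 785 and 839 to 550 and 1384, and from 1470 and 1833 to 874 and 2637. The larger side also changed for rictor-KO against WT under isorhamnetin (1105 and 1494 to 1374 and 1310) and for GATA3-KO against rictor-KO with DMSO (1822 and 1737 to 1585 and 1971). The cause was not tested.

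Precision is limited by 2 libraries a group and by few reads of Rsad2 and Cmpk2 in rictor-KO. Intron reads of Ifit1, Ifit3, Isg15 and Rsad2 were too few to test.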
